A study of Mus musculus with 16 samples.

Results

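The 10 miRNA features described here are both arms of 5 hairpins, miR-337, miR-431, miR-127, miR-434 and miR-136, which lie antisense to Rtl1 or just before it in the proximal part of the imprinted Dlk1-Dio3 region. They are a listed set from this stretch, out of the 650 features of the array, of which 611 are mouse miRNAs. The set does not hold every hairpin there: miR-540, miR-665 and miR-433, which lie between miR-337 and miR-136, are no members and are compared with them below. miRNAs were measured in total liver RNA of 16 male C3H mouse samples, 4 in each of 4 groups. The groups were wild type (WT) and CTNNB1KO, each on a control diet or on a diet with 0.05% phenobarbital for 12 weeks. The labels name water as the control agent, whereas the treatment protocol describes a diet without phenobarbital, so these samples are called controls. In CTNNB1KO, Cre recombinase driven by the hepatocyte-specific albumin promoter (Alb-Cre) deletes the loxP-flanked part of Ctnnb1, the gene of beta-catenin, so the other cells of the liver keep it. Both parent lines had been backcrossed to C3H/N, a background susceptible to tumour promotion by phenobarbital. Whether the WT mice carried Alb-Cre or the loxP sites, and their age, is not stated in the labels.

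The Dlk1-Dio3 region is imprinted: the maternal chromosome expresses non-coding RNAs, among them Meg3, a transcript antisense to Rtl1, Rian and Mirg, and many miRNAs are cut from these RNAs. The paternal chromosome expresses the protein-coding genes Dlk1, Rtl1 and Dio3. miR-127, miR-136, miR-431 and miR-434 are processed from the transcript antisense to Rtl1, match the Rtl1 mRNA in full and can direct its cleavage. The maternal RNAs are abundant in embryo, placenta and brain and low in adult liver. Phenobarbital activates the nuclear receptor CAR in hepatocytes, and beta-catenin carries Wnt signals to the nucleus and keeps the perivenous gene programme of the liver.

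All 10 features were matched to a mature sequence of the RefSeq table of build GRCm38.p6. On the array an unmarked name is the arm that was taken as the main product when the array was designed, and an asterisk marks the opposite arm. miR-127 is therefore the 3p arm, and miR-136 and miR-431 are 5p arms. The sequences are shown because the arms of a hairpin are compared below. They are given 5′ to 3′ in genomic order with the seed, bases 2 to 8, in capitals. All lie on the plus strand of chromosome 12.
mmu-miR-337-5p: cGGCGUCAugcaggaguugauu
mmu-miR-337-3p: uCAGCUCCuauaugaugccuuu
mmu-miR-431: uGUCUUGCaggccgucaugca
mmu-miR-431*: cAGGUCGUcuugcagggcuucu
mmu-miR-127*: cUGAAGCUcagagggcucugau
mmu-miR-127: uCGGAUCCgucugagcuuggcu
mmu-miR-434-5p: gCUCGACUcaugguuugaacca
mmu-miR-434-3p: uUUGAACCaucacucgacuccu
mmu-miR-136: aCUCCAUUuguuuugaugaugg
mmu-miR-136*: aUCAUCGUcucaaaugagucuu

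The 10 seeds are all different, and none of them occurs in any other mature mouse miRNA of the table, so the members do not form a seed family. GC content ran from 36.4% in miR-136 and miR-136* to 59.1% in miR-127 and miR-431*. The miR-337 hairpin spans chr12:109585789-109585885, and the others follow within 10 kb: miR-431 starts 4.66 kb, miR-127 7.06 kb, miR-434 8.72 kb and miR-136 9.54 kb after it. In that annotation all 5 hairpins lie inside the span of the Rtl1 gene. The miR-127 hairpin (chr12:109592846-109592915, plus strand) is shown with its arms in capitals, since its arms gave the clearest contrast.
mir-127 hairpin: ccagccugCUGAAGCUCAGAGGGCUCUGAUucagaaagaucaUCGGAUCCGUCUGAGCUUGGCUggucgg

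In 2 of the 5 hairpins the arms share a long run of bases. The arms of miR-431 share 10 bases and those of miR-434 share 9, and the shared run is in capitals in the lines that follow. Of 677 mouse hairpins with both arms in the table, 1.33% share a run of at least 9 bases, and the median is 4. The other 3 hairpins share 4 or 5 bases. A probe for one arm of miR-434 or miR-431 therefore faces a stretch that the opposite arm also carries, and how far the array separates such arms was not tested.
mmu-miR-431: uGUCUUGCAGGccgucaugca
mmu-miR-431*: caggucGUCUUGCAGGgcuucu
mmu-miR-434-5p: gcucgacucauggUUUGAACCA
mmu-miR-434-3p: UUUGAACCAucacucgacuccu

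Values are the deposited log2 expression values. The array also carries 39 miRNAs of mouse viruses, and the 0.95 quantile of their means, 3.98, was taken as a dim floor, at or under which a value cannot be told from background. That floor rests on few bright viral features: the 3 brightest viral means were 4.60, 4.16 and 3.97 and the next was 3.46. Each array had at least 100 mouse miRNAs above it, and arrays of one group correlated at 0.966 to 0.996 across miRNAs. The hepatocyte miRNA miR-122 stood at 15.05 to 15.33 on every array. Replicates 1 and 2 of CTNNB1KO with phenobarbital carried striated muscle miRNAs (miR-1 at 8.17 and 6.03, against at most 3.86 elsewhere), and the counts that use this group are also given without them. Ctnnb1 mRNA is not measured by this array, so the knockout was not checked here. The labels do not say whether the 4 arrays of a group are 4 different mice, so p-values reflect the spread among the arrays, which may be partly technical.

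In WT livers, phenobarbital raised 5 of the 10 members: miR-127, miR-136, miR-434-3p, miR-337-5p and miR-434-5p. The differences ran from 0.39 to 1.25 on the log2 scale and were largest for miR-127 and miR-136. The 5 came from 4 of the 5 hairpins, and neither arm of miR-431 rose. A member was called when its limma p-value, adjusted by Benjamini-Hochberg over all 611 mouse miRNAs, was under 0.05. By that rule 2.78% of the mouse miRNAs were called in this comparison, all of them higher. The median difference was 0.41 over the 10 members and 0.00 over all mouse miRNAs. Liver RNA was measured in bulk, so more cells of a type and more RNA per cell cannot be told apart.

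mmu-miR-127, the third hairpin of the group and a known regulator of Rtl1, was at 3.31, 3.59, 3.37 and 3.61 in the WT controls. With phenobarbital it was at 4.11, 4.87, 4.98 and 4.90. All 4 treated arrays lay above all 4 controls and above the floor, with replicate 1 well below the other 3. The mean went from 3.47 ± 0.15 to 4.71 ± 0.41 (SD, n = 4 arrays per group), a rise of 1.25 ± 0.16 (SE; limma adjusted p = 4.13e-05). Taken against the floor, since the controls were under it, the rise was at least 1.66-fold. This bound would be smaller with the floor at the viral maximum, 4.60. Without replicate 1 of the treated group the log2 difference was 1.45.

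mmu-miR-136, an arm of the last of the 5 hairpins, was at 3.62, 3.67, 3.68 and 3.73 in the WT controls and at 3.96, 4.50, 4.79 and 4.48 with phenobarbital. The groups did not overlap, and replicate 1 was again the lowest treated array, just under the floor. The rise was 0.76 ± 0.14 (limma adjusted p = 0.00149), at least 1.36-fold against the floor. That bound rests on the floor chosen: the viral maximum, 4.60, lies above the treated mean of 4.43, and with it no bound could be given. The WT controls of miR-136 were tightly grouped, with an SD of 0.04, against 0.34 with phenobarbital.

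Both arms of the miR-434 hairpin rose, though they share a run of 9 bases and how far the array separates them was not tested. mmu-miR-434-3p was at 3.37, 3.15, 3.43 and 3.61 in the controls and at 3.65, 4.22, 4.19 and 3.94 with phenobarbital, a rise of 0.61 ± 0.12 (limma adjusted p = 0.00416). Its treated replicate 1 stood only just above the highest control, and 2 of the 4 treated arrays were above the floor. miR-434-5p was at 3.09, 3.37, 3.15 and 3.31 in the controls and at 3.67, 3.65, 3.51 and 3.67 with phenobarbital, a rise of 0.39 ± 0.10 (limma adjusted p = 0.0411). For this arm replicates 1 and 4 were level as the highest treated arrays and replicate 3 was the lowest, and no array was above the floor. The call of miR-434-5p was the least firm of the 5. It ended when any of 10 single arrays was left out (WT control replicates 1 and 3, each WT phenobarbital array, CTNNB1KO control replicates 2, 3 and 4, or CTNNB1KO phenobarbital replicate 1), with an adjusted p of at most 0.151. The call also ended with an unmoderated linear model (adjusted p = 0.0783).

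**Figure D1:**
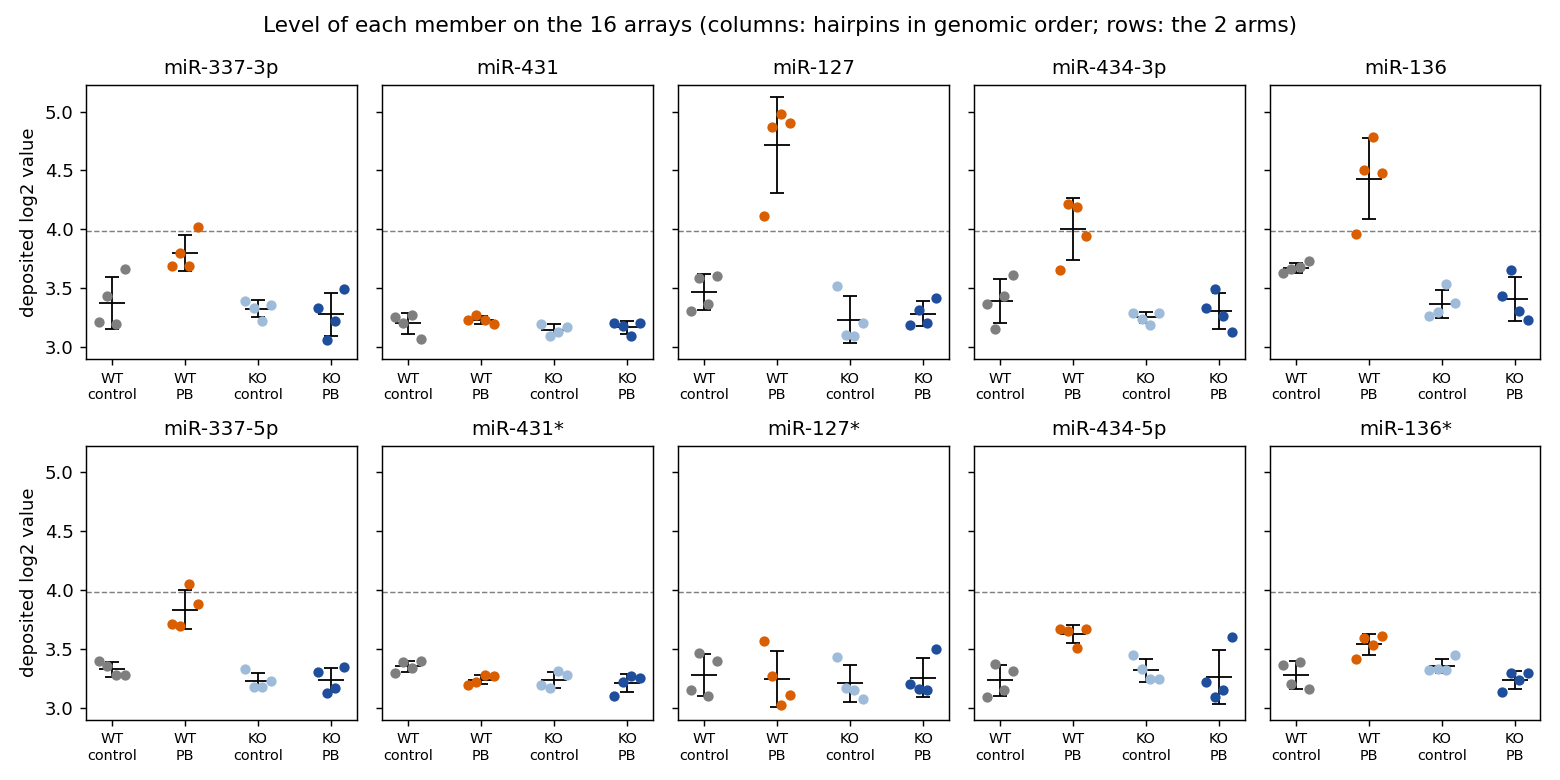
Deposited log2 values of the 10 members on the 16 arrays, one panel per feature, with hairpins in genomic order from left to right and the 2 arms of a hairpin above each other. Points are arrays in replicate order (KO stands for CTNNB1KO and PB for phenobarbital), bars are the mean ± SD of 4 arrays and the dashed line is the dim floor at 3.98. WT phenobarbital arrays reach above the line for miR-127 (4 of 4), miR-136 (3), miR-434-3p (2) and each arm of miR-337 (1), miR-431 and miR-431* stay between 3.07 and 3.39 in every group, and miR-127* does not follow miR-127.

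miR-337, the first hairpin of the group along the chromosome, had 1 arm that passed. mmu-miR-337-5p was at 3.40, 3.36, 3.27 and 3.27 in the WT controls and at 3.71, 3.70, 4.05 and 3.88 with phenobarbital, a rise of 0.51 ± 0.09 (limma adjusted p = 0.00103). miR-337-3p was at 3.21, 3.43, 3.19 and 3.66 in the controls and at 3.69, 3.79, 3.69 and 4.02 with phenobarbital, a difference of 0.42 ± 0.11 (limma adjusted p = 0.0543). Each arm had 1 treated array above the floor. For both arms the treated arrays lay above the controls, but control replicate 4 of miR-337-3p stood just under the lowest treated arrays. Without that control array the difference of miR-337-3p was 0.52 and passed (limma adjusted p = 0.00666). It also passed without CTNNB1KO phenobarbital replicate 2 or 4, which change only the pooled spread. With array weights and with the replicate number as a block it passed too (limma adjusted p of 0.000579 and 0.0139). It passed as well when the features outside the members were limited to those above the floor (limma adjusted p = 0.0251). The members were exempt from that filter, and no group mean of miR-337-3p was above the floor.

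The remaining members did not pass. miR-136*, the opposite arm of miR-136, was at 3.36, 3.20, 3.39 and 3.15 in controls and at 3.41, 3.59, 3.53 and 3.61 with phenobarbital, a difference of 0.26 ± 0.08 (limma adjusted p = 0.0925). All 4 treated arrays were higher than the controls, replicate 1 only just, and all were under the floor. miR-127* differed by -0.04 ± 0.12, miR-431 by 0.03 ± 0.06 and miR-431* by -0.11 ± 0.06, with 95% intervals of -0.29 to 0.21, -0.09 to 0.15 and -0.25 to 0.02. All 3 intervals end below the smallest difference that passed, 0.39 for miR-434-5p, although that of miR-127* overlaps the interval of miR-434-5p itself (0.18 to 0.61). All 4 treated arrays of miR-431* were below all 4 controls.

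Over the 10 members, the 4 phenobarbital arrays lay wholly above the 4 WT controls for 7 and wholly below them for 1. Of all mouse miRNAs, 3.93% lay wholly above and 3.27% wholly below in this comparison. Outside the WT phenobarbital group the 30 group means of the members all lay between 3.15 and 3.67, under the floor. Within it, the 5 members that rose had means from 3.63 to 4.71, and 3 of them, miR-127, miR-136 and miR-434-3p, had means above the floor. The WT phenobarbital group had the highest mean of the 4 groups for 8 of the 10 members, the exceptions being miR-127* and miR-431*. For miR-431 this was 3.23 against 3.20 in the WT controls, both under the floor, so its order says little. The share of all mouse miRNAs with that order was not taken.

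The treated WT arrays did not rank alike for all members. Replicate 1 was the lowest for miR-127, miR-136, miR-136* and miR-434-3p, at 0.64, 0.29, 0.14 and 0.26 above the control mean, and for miR-431*. For miR-127* replicate 1 was the highest, at 0.29 above the control mean. For miR-434-5p it was level with replicate 4 as the highest, both at 0.44 above the control mean. In each of the 4 groups the array with the highest miR-127* was also the highest, or level with the highest, for miR-434-5p. These were control replicate 2 and phenobarbital replicate 1 (level with replicate 4 for miR-434-5p) in WT, and control replicate 1 and phenobarbital replicate 4 in CTNNB1KO. All values of both features lay under the floor, and this pairing was not a planned comparison and was not tested.

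The next comparison asked whether the 2 arms of a hairpin moved by different amounts. The difference between the arms was taken on each array, which removes any scaling of the whole array, and was tested with limma over all 168 mouse hairpins with both arms on the array. The level of one arm's probe was not read against that of the other. In WT livers 1 of the 5 hairpins, miR-127, changed its arm difference with phenobarbital, where 3.57% of all arm pairs were called. miR-127 minus miR-127* was at 0.16, 0.13, 0.27 and 0.21 in the controls and at 0.55, 1.60, 1.96 and 1.79 with phenobarbital. All treated arrays were higher, replicate 1 by the least, and the change was 1.28 ± 0.20 (limma adjusted p = 0.000159, n = 4 per group).

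For miR-136 minus miR-136* the change was 0.50 ± 0.15 and did not pass (limma adjusted p = 0.0654). It passed without WT control replicate 4 (0.55, adjusted p = 0.0432) and without WT phenobarbital replicate 1 (0.61, adjusted p = 0.011). The arms of the other 3 hairpins differed less: by 0.22 ± 0.18 for miR-434-3p minus miR-434-5p, by 0.15 ± 0.10 for miR-431 minus miR-431* and by -0.09 ± 0.13 for miR-337-3p minus miR-337-5p (limma adjusted p from 0.788 to 0.947). Since the dimmer arms lay at background, an unequal change of the probes is what these values show. Of the 6 arm pairs called in WT, all 6 were Dlk1-Dio3 hairpins, of which 24 were measured with both arms. Besides miR-127 they were miR-376b (1.82), miR-376a (0.71) and miR-300 (0.61), in which the unmarked arm rose more, and miR-154 (-1.15) and miR-299 (-0.70), in which the asterisk arm did.

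**Figure D2:**
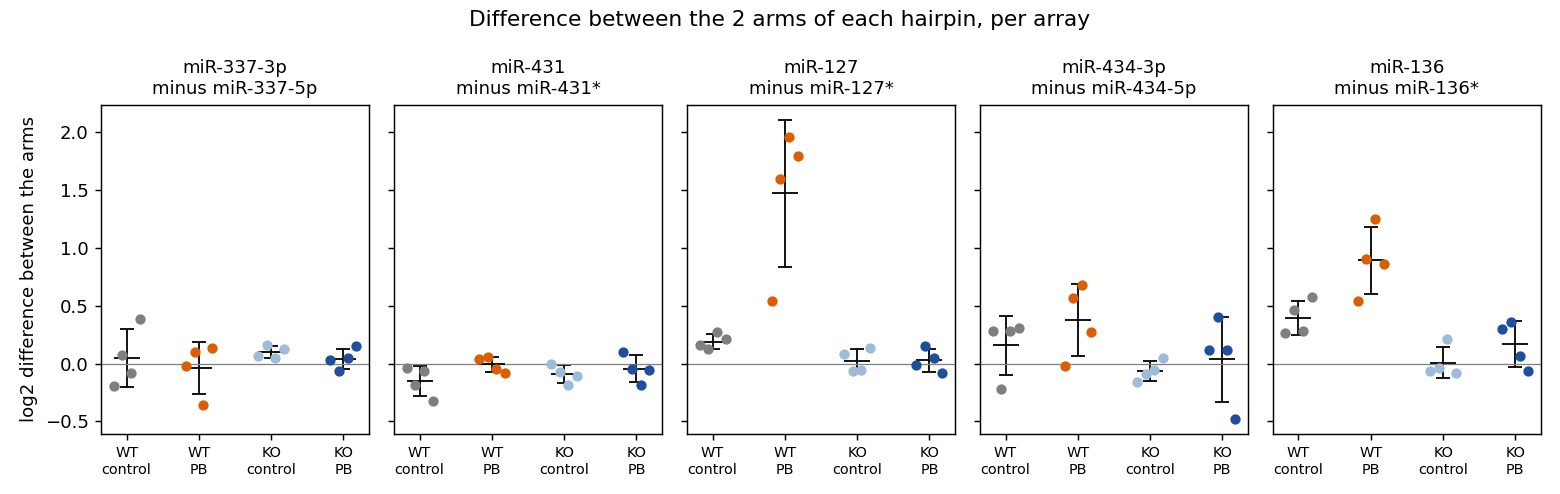
Log2 difference between the 2 arms of each of the 5 hairpins on the 16 arrays, with points for arrays in replicate order and bars for the mean ± SD of 4 arrays (KO stands for CTNNB1KO and PB for phenobarbital). The WT phenobarbital arrays of miR-127 stand at 0.55 to 1.96 and those of miR-136 at 0.55 to 1.25, where the lowest lies just under the highest WT control. The arm differences of miR-337, miR-431 and miR-434 overlap more widely between the groups.

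In CTNNB1KO livers none of the 10 members rose or fell with phenobarbital, and the same holds for all mouse miRNAs (0% called by limma, with 0 members and 32 of the mouse miRNAs at an unadjusted p under 0.05). miR-127 was at 3.52, 3.10, 3.09 and 3.21 in the controls and at 3.19, 3.31, 3.20 and 3.42 with phenobarbital, a difference of 0.05 ± 0.16 with a 95% interval of -0.28 to 0.38. miR-136 was at 3.26, 3.29, 3.53 and 3.37 and then at 3.43, 3.66, 3.31 and 3.23, a difference of 0.04 ± 0.14 with an interval of -0.24 to 0.33. In both the groups overlapped; for miR-136, 1 treated array lay above all controls and 1 below them.

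The other 8 members differed by -0.12 to 0.05 in CTNNB1KO, and the 95% intervals of all 10 together ran from -0.29 to 0.38. miR-434-3p differed by 0.05 ± 0.12 and miR-337-5p by 0.01 ± 0.09. miR-136* had the lowest value, -0.12 ± 0.08, and was the 1 member whose treated arrays lay wholly below the controls (1.47% of all mouse miRNAs lay wholly below and 1.31% wholly above). No arm difference of the 5 hairpins passed either, and that of miR-127 was 0.00 ± 0.20. No array of either CTNNB1KO group had any of the 10 members above the floor. The same limit applies to the calls of miR-434-5p in WT and of miR-136* under phenobarbital, whose groups lay wholly under the floor on both sides: they show a shift in probe values, the size of which in RNA is uncertain. It nearly applies to miR-337-5p in WT, and to both arms of miR-337 between genotypes under phenobarbital. Their group means were under the floor, and only 1 WT phenobarbital array of each arm was above it. Without the 2 muscle-bearing arrays, a choice made after seeing the data, 0 members passed as well.

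**Figure D3:**
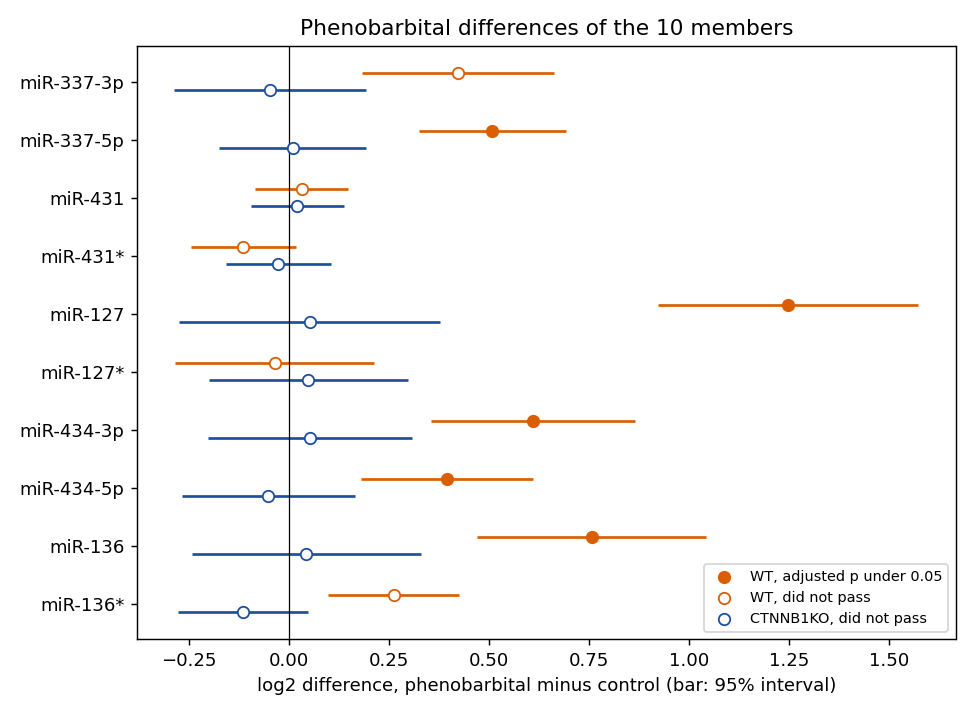
Log2 difference between phenobarbital and control for each of the 10 members, in WT and in CTNNB1KO, with 95% intervals from the limma fit of all 16 arrays. Filled points passed at an adjusted p under 0.05: they are miR-337-5p, miR-127, miR-434-3p, miR-434-5p and miR-136 in WT, from 0.39 to 1.25, while all 10 CTNNB1KO points lie between -0.12 and 0.05.

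Whether the phenobarbital difference itself depended on genotype was tested as an interaction, the difference in CTNNB1KO minus that in WT. Of the 10 members 1 passed, miR-127 at -1.20 ± 0.22 (limma adjusted p = 0.00681), where 1.15% of all mouse miRNAs were called. At an unadjusted p under 0.05 there were 7 members and 51 of the 611 mouse miRNAs. The other 6 of these members did not pass: miR-136 (-0.71 ± 0.19, adjusted p = 0.0966), miR-337-5p (-0.50 ± 0.12, adjusted p = 0.0565), miR-434-3p (-0.56 ± 0.17), miR-434-5p (-0.45 ± 0.15), miR-337-3p (-0.47 ± 0.16) and miR-136* (-0.38 ± 0.11), the last 4 at adjusted p from 0.127 to 0.244. For these 6, a difference between genotypes in the response was therefore not shown by this test. The count was sensitive to single arrays: 4 members passed without WT phenobarbital replicate 1 (miR-136, miR-434-3p and miR-337-5p joining miR-127), 2 without WT phenobarbital replicate 2 and 3 without CTNNB1KO phenobarbital replicate 4. The arm difference of miR-127 also passed as an interaction (-1.28 ± 0.29, limma adjusted p = 0.0118), where 1.79% of arm pairs were called. Without the 2 muscle-bearing arrays both passed, miR-127 at -1.17 (limma adjusted p = 0.0381) as the only member and its arm difference at -1.32 (adjusted p = 0.0433) as the only one of the 5 hairpins.

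Without phenobarbital none of the 10 members passed between CTNNB1KO and WT controls (0.818% of mouse miRNAs were called by limma, 0.327% higher and 0.491% lower), with 1 member, miR-136, and 49 of the 611 mouse miRNAs at an unadjusted p under 0.05. miR-136 differed by -0.31 ± 0.14 (limma adjusted p = 0.557), and its 4 CTNNB1KO arrays lay wholly below the WT controls, as 3.44% of mouse miRNAs did (2.29% lay wholly above). miR-127 differed by -0.24 ± 0.16 and miR-434-3p by -0.14 ± 0.12, and the other members lay between -0.12 and 0.09. All of these are differences between values under the floor.

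Under phenobarbital, 6 of the 10 members were lower in CTNNB1KO than in WT livers and none was higher, where 3.76% of all mouse miRNAs were called, 3.27% lower and 0.491% higher. The WT phenobarbital arrays are those of the comparison within WT, so the lower values here and the rises there are not independent. The difference was -1.43 ± 0.16 for miR-127 (limma adjusted p = 5.26e-06) and -1.02 ± 0.14 for miR-136 (adjusted p = 5.3e-05). It was -0.70 ± 0.12 for miR-434-3p, -0.60 ± 0.09 for miR-337-5p, -0.52 ± 0.11 for miR-337-3p and -0.30 ± 0.08 for miR-136*, the last with an adjusted p of 0.0302. In all 6 the CTNNB1KO arrays lay wholly below the WT arrays, as 7.04% of mouse miRNAs did (4.42% lay wholly above).

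miR-434-5p differed by -0.36 ± 0.10 in this comparison and did not pass (limma adjusted p = 0.0579). Its CTNNB1KO phenobarbital replicate 4 stood at 3.60, inside the range of the WT arrays, against 3.22, 3.09 and 3.15 on the others, and without it the difference was -0.47 (adjusted p = 0.0017). Without the 2 muscle-bearing arrays 4 members were lower, miR-337-3p (adjusted p = 0.0731) and miR-136* (adjusted p = 0.145) no longer passing. The call of miR-136* also ended when the 2 groups were fitted alone and without WT phenobarbital replicate 2, 3 or 4 or CTNNB1KO phenobarbital replicate 1 or 3 (adjusted p of at most 0.122). miR-127*, miR-431 and miR-431* differed by 0.01 ± 0.12, -0.07 ± 0.06 and -0.03 ± 0.06. The arm difference was lower in CTNNB1KO for miR-127 (-1.45 ± 0.20, limma adjusted p = 2.82e-05) and for miR-136 (-0.73 ± 0.15, adjusted p = 0.00184), where 4.76% of arm pairs were called. Without the muscle-bearing arrays these were -1.49 (adjusted p = 0.000741) and -0.89 (adjusted p = 0.00298), and the same 2 hairpins passed.

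The hairpin miR-431, of which no arm passed, lies between hairpins with an arm that passed. Along the chromosome, miR-337 is followed within 1 kb by miR-540 and miR-665, then by miR-431 and its neighbour miR-433, which is also antisense to Rtl1, and then by miR-127, miR-434 and miR-136. The phenobarbital differences in WT were -0.07 for miR-540-3p, -0.09 for miR-540-5p, 0.04 for miR-665, 0.02 for miR-433 and -0.21 for miR-433*, and none of them passed. Of the 13 features of other proximal hairpins on the array 0 passed, with a median of -0.02 and a range of -0.21 to 0.12. No group mean of these 13 features, of miR-431 or of miR-431* was above the floor. A lack of response in them can therefore not be told from RNA too scarce to measure. Of the 52 features of the distal block from miR-379 to miR-410, 11 rose, with a median of 0.09. Features that rose were thus found at both ends of the Rtl1 antisense stretch and in the distal block, with hairpins that did not pass between them.

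**Figure D4:**
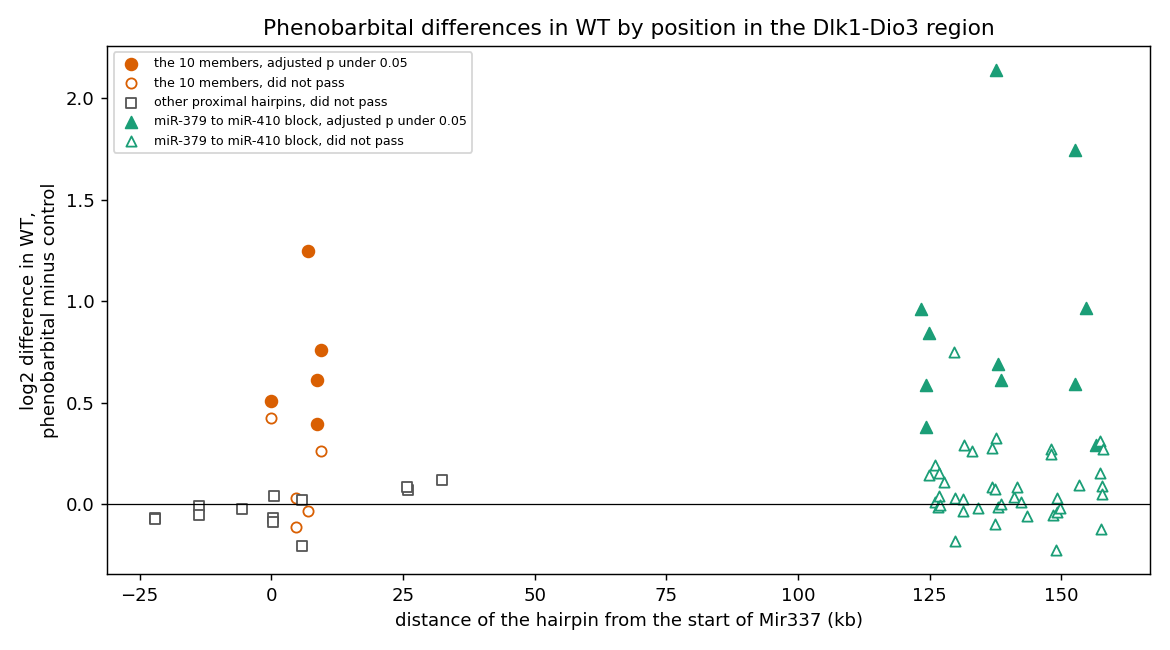
Log2 difference between phenobarbital and control in WT livers for 75 features of the Dlk1-Dio3 region, against the distance of the hairpin from the start of Mir337 in kb. Filled symbols passed at an adjusted p under 0.05: 5 of the 10 members and 11 of the 52 features of the miR-379 to miR-410 block, while 0 of the 13 other proximal features did.

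The features whose profiles over the 16 arrays were closest to those of the responding members were sought by the root mean square distance between profiles centred on their own mean. For miR-127 they were miR-299* (0.218), miR-377 (0.219) and miR-379 (0.247), where the median distance of all mouse miRNAs outside the members was 0.668. For miR-136 they were miR-377 (0.15), miR-154 (0.159) and miR-299* (0.16), against a median of 0.497. miR-337-5p was closest to miR-411* (0.108), miR-411 (0.112) and miR-541 (0.145), against 0.309, and miR-434-3p to miR-154 (0.148), miR-300 (0.151) and miR-376a (0.153), against 0.379. All of these features belong to the distal block of the same region, and all of them had passed in WT themselves. The search used the arrays that gave the calls, so features that rose in WT were bound to come out close. It is no separate support for a link with the distal block. For miR-434-5p the closest outside the members was miR-466b-5p (0.127), then miR-341 (0.148) and miR-220 (0.15), against 0.254. Of these only miR-341 lies in the region.

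No marker of another cell type passed with phenobarbital in WT. Neural tissue expresses this region strongly, so its markers were read beside the members: of 12 neural miRNAs 0 passed, with a median difference of -0.03, and 1 of them had a mean above the floor in each group. Their summed linear level was 126.4 to 142.8 in WT controls and 132.1 to 135.7 with phenobarbital, while that of the 10 members was 99.3 to 108 and 125 to 157. Most of these probes lay at background, so the sums say little about neural RNA, and its part was not tested. None of the 4 hepatocyte, 3 erythroid, 7 leukocyte, 2 endothelial, 7 stellate or mesenchymal, 7 biliary or epithelial, 6 striated muscle and 3 exocrine pancreas miRNAs passed in that comparison either. Between genotypes under phenobarbital, 1 leukocyte miRNA was higher and 1 erythroid miRNA was lower in CTNNB1KO, and none of the other marker lists had a member that passed. The sums of 3 lists did not overlap in that comparison. The leukocyte sum was 320 to 965 in CTNNB1KO and 224 to 296 in WT, the biliary or epithelial sum 206.3 to 271.3 and 139.4 to 182.6, and the erythroid sum 1257 to 2774 and 3001 to 4571. Without phenobarbital, where no member passed between genotypes, 2 of these sums did not overlap either. The erythroid sum was 1172 to 1735 in CTNNB1KO and 2961 to 8088 in WT controls, with 2 erythroid miRNAs called lower. The biliary or epithelial sum was 166.5 to 265.3 and 135.8 to 161.6. The leukocyte sums overlapped there, at 272.0 to 1117 and 271.2 to 338.1. The part of these lists in the lower values of the members was not tested.

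The maternal RNAs of the region are transcribed in the same direction from Meg3 onwards, so the Meg3 promoter is shown because 5 members rose in the same comparison, although not with the same order of arrays. The window runs from 250 bases before to 50 after the start (chr12:109540746-109541045, plus strand, RefSeq, GRCm38.p6), and the letters of the motifs found on either strand are in capitals. Of the 2 windows listed for Meg3 it is the one that starts first, and the other was not searched.
Meg3 promoter: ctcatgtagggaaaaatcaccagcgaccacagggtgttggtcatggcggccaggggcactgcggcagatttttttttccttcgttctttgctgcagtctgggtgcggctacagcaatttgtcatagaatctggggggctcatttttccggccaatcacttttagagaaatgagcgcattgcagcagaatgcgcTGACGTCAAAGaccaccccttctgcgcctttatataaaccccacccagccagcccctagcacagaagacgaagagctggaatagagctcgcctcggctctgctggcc
It holds 1 cAMP response element, TGACGTCA, which 1.79% of 32851 mouse promoter windows of the same length hold. It holds 1 TCF/LEF core, CTTTGA, read on the minus strand and overlapping the first motif, which 5257 of the windows hold. The hexamer AGGTCA, bound by nuclear receptors, was not found in this window, and 16.3% of the windows hold it. A match describes these letters and not a bound site.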

How the data were processed

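The authors deposited log2 expression values, with 1 value for each feature on each array. An Agilent miRNA labelling kit was applied to total RNA, per the labels' protocols. Per the submitters' processing notes the authors used RMA and limma. Software versions and any background step or filtering are not given there; RMA commonly includes quantile normalization, which would hide a shift of all miRNAs together. Detection calls and slides were not used here. The members and lists were chosen with earlier results of these data known.

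All 611 mouse miRNAs on the 16 arrays were fitted with group means in limma 3.58.1 (R 4.3.3; eBayes with an intensity trend, 12 residual degrees of freedom), two-sided, with Benjamini-Hochberg adjustment at 0.05. Arm differences were fitted likewise over 168 pairs. Both fits were tested on simulated data. The named features are the 10 members, the arm pairs of the region that were called and, for each member that rose, the 3 nearest profiles outside the members. Other proximal hairpins are named for their position, chosen after their values were seen. Alternatives were scaling, trend, samples, weights, filter, test, replicate block and leaving out each array. Same-numbered arrays of different groups deviated together at a median correlation of 0.03 (-0.33 to 0.34), so the numbers were not taken as pairs.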

Additional observations from a re-analysis of the deposited data

Results flagged for a closer look

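Among the 40 sets of 4 values (10 members in 4 groups), 4 held an array set apart from the other 3 by more than Dixon's 95% limit, and chance flags about 1 in 20. In WT with phenobarbital, miR-127 stood at 4.11 on replicate 1 against 4.87 to 4.98 on the others, and miR-434-5p at 3.51 on replicate 3 against 3.65 to 3.67. In CTNNB1KO, miR-127* stood at 3.50 on phenobarbital replicate 4 against 3.15 to 3.20, and miR-136* at 3.45 on control replicate 4 against 3.32 to 3.33. The last 3 of these lay under the dim floor.

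The response to phenobarbital differed between genotypes for miR-127, by -1.20 ± 0.22 on the log2 scale (limma interaction, adjusted p = 0.00681), and for the difference between miR-127 and miR-127*, by -1.28 ± 0.29 (adjusted p = 0.0118).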

How the results depend on the processing

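Over the alternatives tried, 1620 values of single members or arm pairs were recomputed. Of these 22 lost their call and 28 gained one, and no called value changed sign. The calls of miR-127, miR-136, miR-337-5p and miR-434-3p in WT, and of the same 4 between genotypes under phenobarbital, held under every alternative run. With each array left out in turn, 4 to 6 members rose in WT, 5 to 7 were lower in CTNNB1KO under phenobarbital, 1 to 4 passed as an interaction, and 1 to 2 hairpins passed for the arm difference in WT. In WT the count was 5 to 7 under the other alternatives, 7 when the features outside the members were limited to those above the floor. The interaction count was 2 without the intensity trend, 5 with array weights and 4 with that filter, from which the members were exempt. It was 0 with an unmoderated linear model, under which miR-127 had an adjusted p of 0.0518. The arm difference of miR-127 as an interaction also fell to 0 hairpins under the unmoderated model. With array weights 2 hairpins passed for the arm difference in WT. With the replicate number as a block 6 members rose in WT, 5 were lower in CTNNB1KO under phenobarbital (miR-136* at adjusted p = 0.0523) and 1 passed as an interaction. The number of members with a WT phenobarbital mean above the floor was 3, but 7 with the floor at the 0.90 quantile (3.38), 1 with it at the viral maximum (4.60), and 2 to 3 with one treated array left out. Most values lie near background, which limits what the dim arms can show.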
